A study of Mus musculus with 19 samples.

Results

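The wild-type XX transition compares mouse embryonic stem cells (mESC) of the LF2 line with epiblast-like cells (EpiLC) made from that line. Its members were chosen by GEO's labels and are 3 XX mESC and 3 XX EpiLC libraries, 6 of the 19 RNA-seq libraries of the series. XX mESC, wild type, were kept with LIF, N2B27 medium and inhibitors of the kinases GSK3 and MEK. XX EpiLC, also wild type, had received FGF5 and Activin A without LIF for 5 days. The study asked whether TET3, an enzyme that oxidises 5-methylcytosine, is needed for this step. For comparison there were 3 XY mESC and 3 XY EpiLC libraries of the wild-type E14 line, and 4 mESC and 3 EpiLC libraries of XX LF2 cells with the Tet3-/- genotype, all under the same culture descriptions. Sex and cell line differ together between the XX and XY groups and cannot be told apart. The labels do not say whether libraries of a group came from separate cultures, so p-values measure the spread between these libraries, which may be technical, and they do not say whether the numbered mutants are clones.

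Naive mESC correspond to the epiblast of the embryo before implantation. LIF signals through the receptor pair LIFR and gp130 to STAT3, the MEK inhibitor blocks the ERK pathway, and the GSK3 inhibitor stabilises beta-catenin. FGF and Activin move the cells towards the formative state of the epiblast just after implantation, which is a polarised epithelium resting on a basement membrane. In XX cells this step is also the time at which an X chromosome is silenced, coated by the long non-coding RNA Xist.

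Gene values are deposited TPM, a transcript abundance relative to all transcripts of its library, summed over the transcripts of a gene and divided by a median-of-ratios factor per library, called scaled TPM below. Scaling was used because the RNA of the signal recognition particle, Rn7s1, held from 33.0% to 41.6% of TPM. TPM holds no read depth, which is unknown here, and precision can be judged only from the spread between libraries. Of 54119 annotated genes, 12531 reached a TPM of 1 in 3 or more of the 6 libraries and were tested with limma on log2(scaled TPM + 1). A gene was called at a Benjamini-Hochberg adjusted p under 0.05. A fold change is the log2 difference XX EpiLC minus XX mESC on this scale, and it is smaller than the true ratio for genes of low TPM. Values written as mean ± SD are over the 3 libraries of a group (n = 3). Where a change is given by a single number, that number is the log2 fold change.

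Naive genes were lower in the libraries labelled XX EpiLC, while Fgf5 and Pou3f1, which define EpiLC, rose to low levels and Otx2 fell. 13 of 14 naive genes were called lower, and the other, Dppa4, was called higher. Klf4, a naive transcription factor, fell from 47.0 ± 1.68 to 1.17 ± 0.0900 scaled TPM, and Nanog fell from 172 ± 11.5 to 37.0 ± 1.60 scaled TPM. Of 13 tested formative genes 10 were called higher, 4 of them with a mean of at least 1 scaled TPM in both groups, and 2, Otx2 and Foxd3, were called lower. The usual EpiLC marker is Fgf5, a growth factor of the formative epiblast. It had 0.00674, 0.0125 and 0.00600 scaled TPM in XX mESC 1 to 3 and 2.26, 2.18 and 2.42 in XX EpiLC 1 to 3. Pou3f1, a POU transcription factor of the formative state, had 0.00657, 0.0263 and 0.00576 scaled TPM in XX mESC 1 to 3 and 3.04, 2.41 and 3.08 in XX EpiLC 1 to 3. Otx2, a homeobox factor that marks EpiLC, fell from 20.5 ± 5.03 to 10.3 ± 0.279 scaled TPM. The 3 libraries of each group did not overlap for Fgf5, Pou3f1 or Otx2, yet the level of Fgf5 was under 3 scaled TPM in every XX EpiLC library, and the EpiLC name is used here as the label gives it. Sox2, a core pluripotency factor, fell from 76.3 ± 1.98 to 14.7 ± 0.469 scaled TPM, and Pou5f1 had 298 ± 82.9 in mESC and 199 ± 10.4 scaled TPM in EpiLC (limma adjusted p 0.0699, not called).

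Markers of other cell types were summed over listed genes, and their part in the results below was not tested. Of the primitive endoderm markers 6 of 18 were tested and 11 stayed under 1 scaled TPM in every library, among them Gata4, Sox17 and Foxa2. The list summed to 40.9 to 45.1 scaled TPM in XX mESC and 155 to 161 in XX EpiLC, most of it in Sparc and Lamb1, which encode matrix proteins. Of the trophoblast markers 11 of 18 were tested and 6 stayed under 1 scaled TPM in every library, among them Cdx2, Elf5 and Hand1. This list summed to 74.5 to 155 scaled TPM in XX mESC and 567 to 581 in XX EpiLC, most of it in Krt18, Krt8 and Cldn4. Of the neural markers 4 of 18 were tested and 14 stayed under 1 scaled TPM in every library, among them Sox1 and Pax6, and the list summed to 5.02 to 6.49 scaled TPM in XX mESC and 39.9 to 42.0 in XX EpiLC, most of it in Nes and Nefl. Of the mesoderm and endoderm markers 3 of 16 were tested and 13 stayed under 1 scaled TPM in every library, among them T and Mixl1, with a sum of 4.80 to 5.15 scaled TPM in XX mESC and 6.75 to 7.68 in XX EpiLC. Of the fibroblast markers 3 of 14 were tested and 11 stayed under 1 scaled TPM in every library, among them Col1a1, Col1a2 and Col3a1, with a sum of 1.50 to 2.08 scaled TPM in XX mESC and 9.10 to 10.1 in XX EpiLC. In bulk RNA, fewer cells of a type and less RNA per cell cannot be told apart.

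XX mESC 2 stood apart from the other mESC libraries. Across tested genes its log2 values correlated with those of XX mESC 1 and 3 at Pearson r 0.942 and 0.945, against 0.988 between XX mESC 1 and 3 and 0.986 to 0.990 between EpiLC libraries (genes are not independent replicates). It lay at least 1 log2 unit above the mean of the other mESC libraries for 338 genes and below it for 776, while XX mESC 1 and 3 differed by that much for 186 genes. App and Sdc4 were furthest below, and Oas1a was furthest above. Results are given with all 6 libraries. Counts without XX mESC 2 follow where leaving it out moved the number of called members of a list by over 1.5 times. These have their own background: 34.8% of tested genes were called higher and 34.7% lower without it.

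With this scaling, almost as many genes were called lower as higher in the transition. Median-of-ratios scaling keeps the median change small (-0.013), so the balance depends on the scaling. Of the 12531 tested genes 6077 (48.5%) were called, 3069 (24.5%) higher and 3008 (24%) lower in XX EpiLC. The libraries of the 2 groups did not overlap for 61.4% of tested genes. Without XX mESC 2, 8704 genes (69.5%) were called, 34.8% higher and 34.7% lower, and 6069 of the 6077 genes were called again in the same direction. Among genes with a mean of at least 1 scaled TPM in both groups, a set that no gene enters through a single group, 19.3% were called higher and 22.6% lower. On TPM as deposited 21.2% were called higher and 11.4% lower, and the median change over all tested genes moved from -0.013 to 0.15. Of the called genes 87 rose and 124 fell by 3 or more log2 units.

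The 12 protein-coding genes that rose most, among called genes with a mean of at least 5 scaled TPM in EpiLC and no overlap, were led by Tagln, Car4 and Krt19. Tagln, the actin-binding protein transgelin (chromosome 9, 45929619 to 45936058, GRCm38), had 0.0409, 0.00945 and 0.00916 scaled TPM in XX mESC 1 to 3 and 89.9, 85.3 and 85.9 in XX EpiLC 1 to 3 (log2 fold change 6.43, SE 0.079, limma adjusted p 1.19e-06). Car4, a membrane-bound carbonic anhydrase (chromosome 11, 84957786 to 84966044), had 0.168, 0.104 and 0.0478 scaled TPM in XX mESC 1 to 3 and 60.3, 60.9 and 55.8 in XX EpiLC 1 to 3 (log2 fold change 5.76, SE 0.090, limma adjusted p 1.72e-06). Krt19, an intermediate filament keratin of simple epithelia (chromosome 11, 100140810 to 100148665), had 1.19, 0.300 and 0.913 scaled TPM in XX mESC 1 to 3 and 77.1, 70.9 and 73.9 in XX EpiLC 1 to 3 (log2 fold change 5.41, SE 0.20, limma adjusted p 9.27e-06). In all 3 genes every EpiLC library lay far above every mESC library. The others were Acta1 (skeletal muscle actin, 5.33), Thbs1 (thrombospondin, 5.04), Adam23 (a membrane protein of the disintegrin family, 4.80), Lin28a (an RNA-binding inhibitor of let-7 maturation, 4.70), S100a6 (a calcium-binding protein, 4.70), Gbp2 (a guanylate-binding protein, 4.63), Cldn6 (a claudin, 4.60), Kif1a (a kinesin motor, 4.55) and Fgfbp1 (a carrier of FGFs, 4.42). Gbp2 has close paralogues whose reads a TPM table cannot separate.

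The 12 protein-coding genes that fell most under the same conditions were led by Crxos, Pramel6 and Aspa. Crxos, a homeobox gene of early embryos (chromosome 7, 15882617 to 15904020), had 183, 275 and 159 scaled TPM in XX mESC 1 to 3 and 0.662, 0.300 and 0.736 in XX EpiLC 1 to 3 (log2 fold change -7.02, SE 0.23, limma adjusted p 6.43e-06). Pramel6, of the PRAME-like family expressed in the naive state (chromosome 2, 87506565 to 87510872), had 138, 31.8 and 137 scaled TPM in XX mESC 1 to 3 and 0.117, 0.153 and 0.0912 in XX EpiLC 1 to 3 (log2 fold change -6.26, SE 0.56, limma adjusted p 0.000239). Aqp3, a water and glycerol channel (chromosome 4, 41092722 to 41098183), had 358, 118 and 341 scaled TPM in XX mESC 1 to 3 and 3.15, 3.56 and 3.34 in XX EpiLC 1 to 3 (log2 fold change -5.82, SE 0.42, limma adjusted p 0.000101). XX mESC 2 was the highest mESC library for Crxos and the lowest for Pramel6 and Aqp3, but no mESC library overlapped an EpiLC library. The others were Aspa (aspartoacylase, -5.88), 1700013H16Rik (-5.67), Ly6a (the surface protein Sca-1, -5.57), Spic (an Ets-family transcription factor, -5.46), Calcoco2 (an autophagy receptor, -5.45), Alpl (alkaline phosphatase, a stem cell stain, -5.44), Pramel7 (-5.34), Dazl (a germ cell RNA-binding protein, -5.32) and Jam2 (a junctional adhesion molecule, -5.18).

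**Figure D1:**
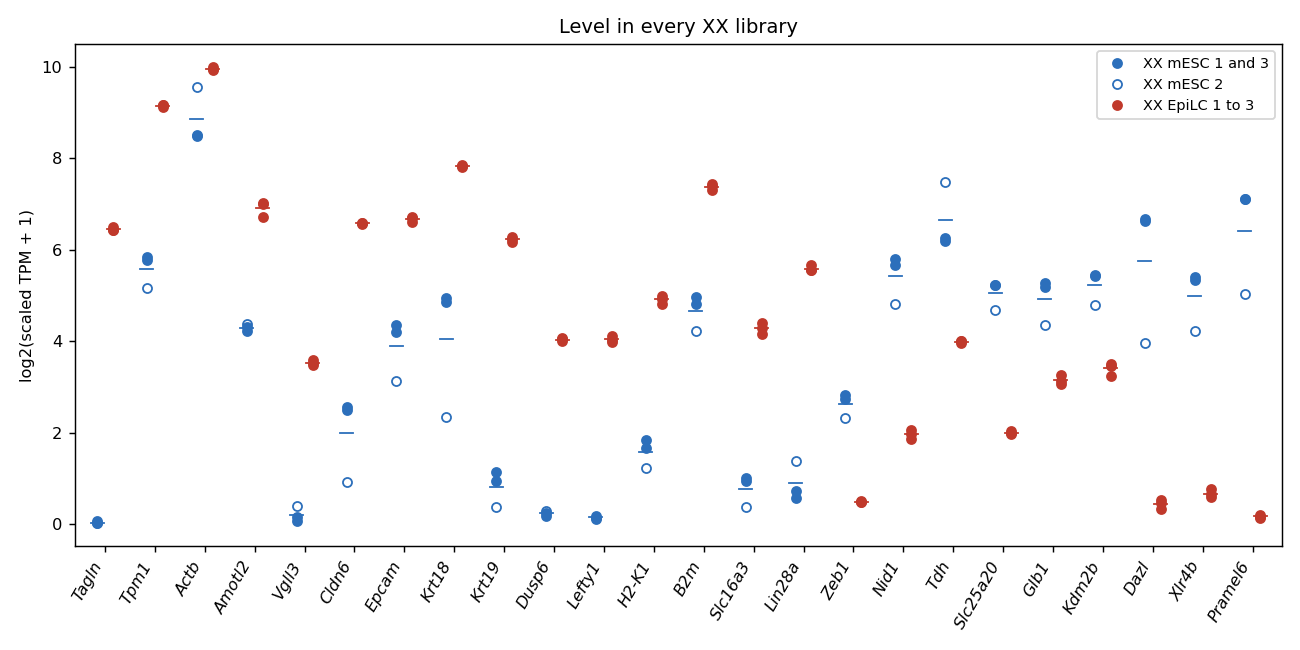
Level of 24 genes in every XX library, as log2(scaled TPM + 1) on the vertical axis, with mESC and EpiLC libraries in different colours, the open circle for XX mESC 2 and a bar at each group mean. The mESC and EpiLC points do not overlap for Tagln, Krt19, Nid1, Tdh, Dazl or Pramel6, and XX mESC 2 is the lowest mESC library for Krt18 and Dazl and the highest for Actb and Tdh.

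The genes that changed most in level were other ones. Among nuclear protein-coding genes the largest rises in mean level were in Tpm1, a tropomyosin (from 48.2 ± 11.8 to 568 ± 9.94 scaled TPM), Actb, cytoplasmic beta-actin (from 494 ± 229 to 999 ± 24.1 scaled TPM), Actg1 (from 248 ± 102 to 621 ± 8.99 scaled TPM), Myl6, a myosin light chain (from 204 ± 82.8 to 567 ± 22.3 scaled TPM), S100a6 (from 9.77 ± 2.88 to 273 ± 11.3 scaled TPM) and S100a10 (from 44.1 ± 2.63 to 280.1 ± 21.7 scaled TPM). The largest falls were in Rps29 (from 3923 ± 311 to 2128 ± 109 scaled TPM), Dppa5a, an RNA-binding protein of pluripotent cells (from 2264 ± 279 to 726 ± 35.4 scaled TPM), Mt2, a metallothionein (from 1807 ± 415 to 979 ± 79.4 scaled TPM), Hsp90aa1, a chaperone (from 1499 ± 34.2 to 682 ± 50.7 scaled TPM), Rpl39 (from 1855 ± 431 to 1056 ± 156 scaled TPM) and Rps12 (from 2232 ± 172 to 1613 ± 94.7 scaled TPM).

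Contractile genes and other targets of the serum response factor SRF rose almost without exception. SRF, with actin-sensing cofactors, switches on actins, tropomyosins, myosin light chains and focal adhesion proteins. Of 25 listed genes 23 were tested, and 22 of them were called higher, with a median of 1.88 on the log2 scale (all tested genes -0.013). The exception, Cnn3, had a log2 change of 0.20 (limma adjusted p 0.119). 6 members had a mean under 1 scaled TPM in mESC, and of the 17 with a mean of at least 1 in both groups 16 were called higher.

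Within the group, Tpm1 had 56.2, 34.7 and 53.8 scaled TPM in XX mESC 1 to 3 and 557, 571 and 577 in XX EpiLC 1 to 3 (log2 fold change 3.56, SE 0.20, limma adjusted p 3.65e-05). Tpm2, another tropomyosin, had 2.75, 1.22 and 2.75 scaled TPM in XX mESC 1 to 3 and 32.8, 32.2 and 33.9 in XX EpiLC 1 to 3 (log2 fold change 3.43, SE 0.22, limma adjusted p 5.89e-05). Both rose by more than 3 log2 units with no overlap. The calponin Cnn2 rose from 4.81 ± 1.80 to 51.0 ± 1.80 scaled TPM (log2 fold change 3.21, SE 0.25, limma adjusted p 0.000123), and caldesmon Cald1 from 14.2 ± 3.71 to 80.0 ± 2.01 scaled TPM (log2 fold change 2.44, SE 0.17, limma adjusted p 9.63e-05). The myosin light chain Myl9 was listed at 0 in all 3 mESC libraries and had 6.86, 6.89 and 6.26 scaled TPM in XX EpiLC 1 to 3, so no fold is given. Smooth muscle actin Acta2 rose as well (2.36), as did the focal adhesion proteins vinculin (Vcl, 1.94) and zyxin (Zyx, 1.88), filamin A (Flna, 1.96) and non-muscle myosin heavy chain Myh9 (1.46). Actb, often taken as a constant reference, had 364, 758 and 358 scaled TPM in XX mESC 1 to 3 and 1027, 988 and 983 in XX EpiLC 1 to 3 (log2 fold change 1.11, SE 0.31, limma adjusted p 0.0250). XX mESC 2 lay between the other mESC libraries and the EpiLC libraries for this gene. Srf itself had 3.85, 5.45 and 3.44 scaled TPM in XX mESC 1 to 3 and 6.88, 7.05 and 7.17 in XX EpiLC 1 to 3 (log2 fold change 0.63, SE 0.15, limma adjusted p 0.0142).

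A CArG box, the element SRF binds, was found in the RefSeq promoter window (250 bases before to 50 after the start, GRCm38.p6, both strands) of 5 of the 20 tested members that have a window, against 1.63% of all 32851 windows. These were Actg1, Cnn2, Myl9, Srf and Vcl. The 250 bases before the start of Cnn2, the member with the largest change among them, are shown (chr10:79988350-79988599, plus strand, 5′ to 3′), with the CArG box in capitals. It holds 25 CpG dinucleotides. A match describes the letters, not a bound site.
Cnn2: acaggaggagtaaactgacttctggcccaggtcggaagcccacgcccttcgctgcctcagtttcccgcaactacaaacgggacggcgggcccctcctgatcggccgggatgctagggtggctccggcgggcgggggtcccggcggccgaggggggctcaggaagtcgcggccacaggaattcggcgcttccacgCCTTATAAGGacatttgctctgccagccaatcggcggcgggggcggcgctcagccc

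Regulators and targets of the Hippo pathway rose, while its coactivators Yap1 and Wwtr1 were not called. The Hippo kinases LATS1 and LATS2 keep the coactivators YAP and TAZ out of the nucleus, where these act through TEAD factors. 14 of 17 tested genes (21 listed) were called higher and 3 were not called, with a median log2 fold change of 1.65; of the 12 with a mean of at least 1 scaled TPM in both groups 9 were higher. Vgll3, a cofactor that binds TEAD, had 0.0405, 0.311 and 0.115 scaled TPM in XX mESC 1 to 3 and 11.1, 10.4 and 10.2 in XX EpiLC 1 to 3 (log2 fold change 3.33, SE 0.11, limma adjusted p 7.51e-06). Among YAP regulators, Amot (angiomotin, X-linked) rose from 0.275 ± 0.0628 to 8.02 ± 0.507 scaled TPM (log2 fold change 2.82, SE 0.090, limma adjusted p 6.43e-06) and Amotl2 from 18.7 ± 0.949 to 120.1 ± 13.4 scaled TPM (log2 fold change 2.61, SE 0.12, limma adjusted p 1.60e-05). The groups did not overlap for these 3 genes. Of the YAP targets Ccn1 had 15.7, 6.80 and 15.1 scaled TPM in XX mESC 1 to 3 and 68.5, 72.9 and 72.3 in XX EpiLC 1 to 3 (log2 fold change 2.50, SE 0.30, limma adjusted p 0.000831). Ccn2 rose by 1.94 and Axl by 1.68 on the log2 scale. The LIM protein Ajuba rose from 12.2 ± 0.278 to 50.5 ± 1.20 scaled TPM, and the kinase Lats2 by 1.65. Tead1 rose from 9.79 ± 0.865 to 28.3 ± 3.60 scaled TPM, whereas Yap1 had a log2 change of 0.12 (limma adjusted p 0.325), Wwtr1, which encodes TAZ, 0.017 (adjusted p 0.883) and Tead4 0.18 (adjusted p 0.115).

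The TEAD element GGAATG (both strands) lay in 10 of 14 member windows, in 8 of 20 windows of the contractile list and in 14.7% of all windows. The 250 bases before the start of Vgll3 (chr16:65814939-65815188, plus strand) carry it on the opposite strand, so that it reads CATTCC, in capitals.
Vgll3: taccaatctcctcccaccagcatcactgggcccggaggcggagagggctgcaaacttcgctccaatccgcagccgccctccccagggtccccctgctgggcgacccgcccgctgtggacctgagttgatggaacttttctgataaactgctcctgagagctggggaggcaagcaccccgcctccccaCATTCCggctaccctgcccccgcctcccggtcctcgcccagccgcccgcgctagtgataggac

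Most tested tight junction and polarity genes rose. Tight junctions seal epithelial sheets with claudins and occludin, tied to actin by ZO proteins. 17 of 19 tested genes (23 listed) were called higher (median 1.49), 15 of the 17 with a mean of at least 1 in both groups, and the other 2, Pard3 and Prkci, were not called. Cldn6, the claudin of early epithelia, had 4.86, 0.895 and 4.62 scaled TPM in XX mESC 1 to 3 and 95.6, 93.2 and 95.8 in XX EpiLC 1 to 3 (log2 fold change 4.60, SE 0.43, limma adjusted p 0.000309). Cldn7 had 5.71, 0.761 and 4.62 scaled TPM in XX mESC 1 to 3 and 48.6, 49.3 and 50.2 in XX EpiLC 1 to 3 (log2 fold change 3.64, SE 0.49, limma adjusted p 0.00139). In both XX mESC 2 was the lowest library, and without it the fold changes were 4.04 and 3.02. The polarity scaffold Pard6b rose from 2.04 ± 0.577 to 23.3 ± 0.102 scaled TPM (log2 fold change 3.01, SE 0.14, limma adjusted p 2.06e-05), occludin (Ocln) by 2.04, cingulin (Cgn) by 2.57 and ZO-1 (Tjp1) by 1.49. All 5 tested claudins were called higher.

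Adherens junction genes and regulators of epithelial identity moved in the same direction. 10 of 15 tested genes were called higher and 1, Zeb1, lower (median 0.89), against 24.5% and 24% of all tested genes. The mean was under 1 scaled TPM for 3 of them in mESC and for 1 in EpiLC. Of the 11 with a mean of at least 1 in both groups 7 were higher and 0 lower. The splicing regulator of epithelia, Esrp1, had 0.423, 0.0530 and 0.492 scaled TPM in XX mESC 1 to 3 and 16.5, 18.2 and 18.3 in XX EpiLC 1 to 3 (log2 fold change 3.83, SE 0.15, limma adjusted p 1.18e-05). Epcam, an epithelial adhesion molecule, had 19.4, 7.72 and 17.4 scaled TPM in XX mESC 1 to 3 and 104, 102 and 96.5 in XX EpiLC 1 to 3 (log2 fold change 2.78, SE 0.32, limma adjusted p 0.000726). The polarity protein Crb3 rose from 3.14 ± 1.74 to 41.3 ± 3.95 scaled TPM (log2 fold change 3.46, SE 0.35, limma adjusted p 0.000422). Zeb1, a repressor of epithelial genes, had 5.63, 3.96 and 6.11 scaled TPM in XX mESC 1 to 3 and 0.411, 0.388 and 0.391 in XX EpiLC 1 to 3 (log2 fold change -2.14, SE 0.15, limma adjusted p 8.49e-05). The 3 epithelial genes were higher, and this repressor lower, in every EpiLC library than in any mESC library. E-cadherin (Cdh1) rose from 47.0 ± 10.1 to 83.4 ± 1.94 scaled TPM, P-cadherin (Cdh3) from 0.824 ± 0.468 to 8.26 ± 0.525 scaled TPM, and N-cadherin (Cdh2) did not pass the filter. Vimentin (Vim) had 12.8, 23.3 and 12.1 scaled TPM in XX mESC 1 to 3 and 20.0, 21.8 and 18.8 in XX EpiLC 1 to 3 (limma adjusted p 0.260) and was not called.

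Most tested keratins, the intermediate filaments of epithelia, rose. 6 of 7 tested keratins were called higher (median 2.98), Krt42 being the exception, and 4 had a mean under 1 scaled TPM in mESC. Krt8 had 13.7, 13.7 and 12.8 scaled TPM in XX mESC 1 to 3 and 141, 142 and 144 in XX EpiLC 1 to 3 (log2 fold change 3.31, SE 0.086, limma adjusted p 4.00e-06). Its partner Krt18 had 29.9, 4.04 and 27.9 scaled TPM in XX mESC 1 to 3 and 231, 226 and 225 in XX EpiLC 1 to 3 (log2 fold change 3.79, SE 0.69, limma adjusted p 0.00483). XX mESC 2 lay well below the other mESC libraries for Krt18 but not for Krt8. Krt17 and Krt7 rose by 2.98 and 1.68. Of the 3 keratins with a mean of at least 1 in both groups 2 were higher. Krt7, Krt8, Krt18 and Cldn4 are also on the trophoblast list, of which 7 of 11 tested members were called higher and 3 lower, 4 and 2 of the 7 with a mean of at least 1 in both groups.

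Basement membrane genes rose for the most part, but laminin alpha 1 and nidogen 1 fell. Basement membranes are sheets of laminin and collagen IV linked by nidogen and perlecan. 10 of 14 tested genes were called higher and 2 lower (median 1.26), against 24.5% and 24% of all tested genes. Of the 11 with a mean of at least 1 scaled TPM in both groups 8 were higher and 1 lower. Lamb1 had 3.54, 1.47 and 3.84 scaled TPM in XX mESC 1 to 3 and 28.7, 32.7 and 32.3 in XX EpiLC 1 to 3 (log2 fold change 3.09, SE 0.26, limma adjusted p 0.000196). Nid1, the linker between laminin and collagen IV, had 49.8, 27.3 and 54.8 scaled TPM in XX mESC 1 to 3 and 2.63, 3.15 and 2.93 in XX EpiLC 1 to 3 (log2 fold change -3.47, SE 0.26, limma adjusted p 0.000114). Lama1 had 14.3, 8.73 and 17.6 scaled TPM in XX mESC 1 to 3 and 0.507, 0.591 and 0.594 in XX EpiLC 1 to 3 (log2 fold change -3.17, SE 0.23, limma adjusted p 0.000110). The beta and the alpha laminin chain moved in opposite directions without overlap of the groups. Col18a1 rose from 9.52 ± 4.20 to 61.6 ± 5.42 scaled TPM, Sparc from 28.3 ± 8.16 to 116 ± 1.24 scaled TPM, perlecan (Hspg2) by 1.79 and agrin (Agrn) by 1.72. Lamb1, Sparc and Col4a1 are also primitive endoderm markers. Of the 6 tested members of that list 4 were called higher and 1 lower, 2 and 0 of the 3 with a mean of at least 1 in both groups. The median of the primitive endoderm list was 1.17, and -0.011 with no filter on low TPM. Gata6, a transcription factor of that lineage, did not pass the filter and had 3.14, 0.376 and 3.36 scaled TPM in XX mESC 1 to 3 and 0.233, 0.220 and 0.287 in XX EpiLC 1 to 3.

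Among tested collagen and integrin genes there were more higher than lower calls. 8 of 10 tested collagens were called higher (median 1.28), of 44 annotated, and 7 of the 10 had a mean under 1 scaled TPM in mESC; of the 3 with a mean of at least 1 in both groups 2 were higher. Col2a1 rose from 1.19 ± 0.0486 to 10.9 ± 1.14 scaled TPM and Col5a2 from 0.808 ± 0.158 to 8.43 ± 0.418 scaled TPM. Among integrins, the receptors for these matrices, 6 of 9 tested genes were higher and 1 lower, 3 and 1 of the 6 with a mean of at least 1 in both groups. The fibronectin receptor chain Itga5 rose from 0.791 ± 0.163 to 5.45 ± 0.341 scaled TPM and the laminin receptor chain Itga3 from 5.44 ± 0.343 to 22.1 ± 1.84 scaled TPM, while Itga6, also of laminin receptors, fell from 40.3 ± 8.54 to 25.0 ± 0.673 scaled TPM. Their common partner Itgb1 rose from 37.7 ± 2.58 to 78.6 ± 4.83 scaled TPM (log2 fold change 1.04, SE 0.10, limma adjusted p 0.000379).

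S100 proteins and annexins, calcium-dependent proteins under the plasma membrane, moved in both directions, with steep rises. 8 of 15 tested genes were called higher and 3 lower, with a median of 1.35 (0.81 without XX mESC 2). S100a6 had 8.67, 13.0 and 7.60 scaled TPM in XX mESC 1 to 3 and 283, 260.4 and 275 in XX EpiLC 1 to 3 (log2 fold change 4.70, SE 0.19, limma adjusted p 1.27e-05). Anxa2 and S100a10 form a complex. Anxa2 had 18.8, 23.5 and 17.9 scaled TPM in XX mESC 1 to 3 and 133, 131 and 131 in XX EpiLC 1 to 3 (log2 fold change 2.67, SE 0.12, limma adjusted p 1.86e-05). S100a10 had 46.6, 44.3 and 41.4 scaled TPM in XX mESC 1 to 3 and 305, 268 and 267 in XX EpiLC 1 to 3 (log2 fold change 2.64, SE 0.11, limma adjusted p 1.27e-05). Both partners had groups that did not overlap. Anxa3 rose from 7.08 ± 0.770 to 72.3 ± 1.85 scaled TPM, Anxa1 by 2.44 and S100a11 by 2.20. Anxa8 fell from 16.7 ± 7.06 to 4.97 ± 0.307 scaled TPM and S100a13 from 58.5 ± 34.4 to 15.2 ± 1.47 scaled TPM, with XX mESC 2 the lowest mESC library in both.

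**Figure D2:**
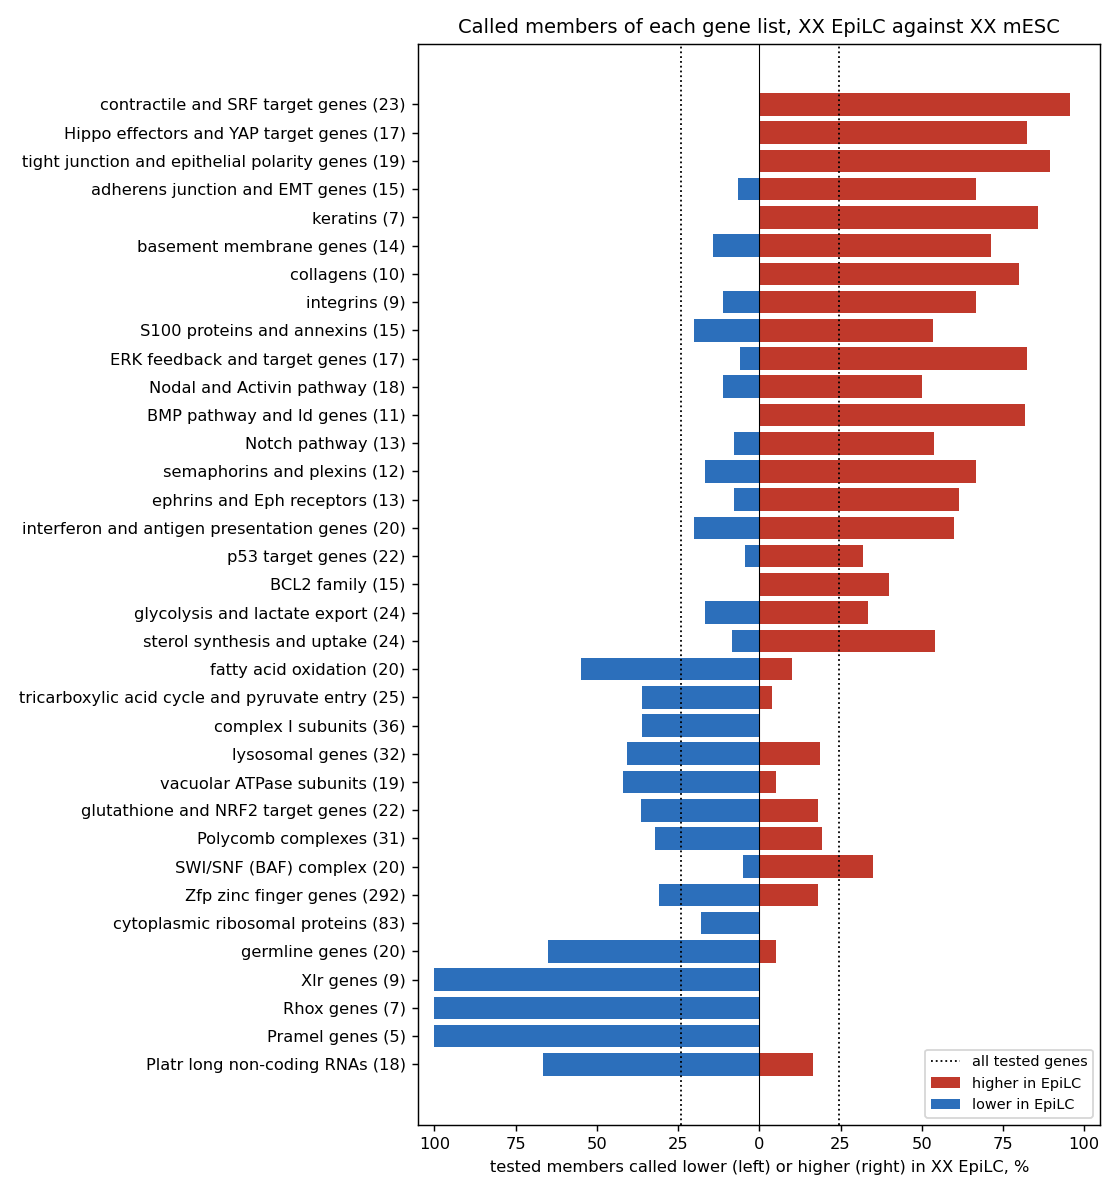
Share of the tested genes of 35 lists and families that were called higher (to the right) or lower (to the left) in XX EpiLC, in percent, with dotted lines at the shares over all tested genes (24.5% and 24%). Contractile genes extend furthest right (95.7%), and the bars of the Xlr, Rhox and Pramel genes reach the left end, with all tested members called lower; several of these had a mean under 1 scaled TPM in EpiLC.

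Feedback and target genes of ERK, the kinase whose activator MEK is inhibited in the mESC medium, were higher in EpiLC. 14 of 17 tested genes were called higher (median 1.42) and 1, Etv5, lower; 9 had a mean under 1 scaled TPM in mESC, and of the 8 above that in both groups 5 were higher. Dusp6, a phosphatase that inactivates ERK, had 0.135, 0.222 and 0.181 scaled TPM in XX mESC 1 to 3 and 15.7, 15.5 and 15.0 in XX EpiLC 1 to 3 (log2 fold change 3.80, SE 0.081, limma adjusted p 3.20e-06). Dusp4 had 0.797, 0.0229 and 0.781 scaled TPM in XX mESC 1 to 3 and 12.4, 12.1 and 12.2 in XX EpiLC 1 to 3 (log2 fold change 3.16, SE 0.23, limma adjusted p 9.90e-05). Every mESC library was under 1 scaled TPM for both phosphatases. The inhibitors Spry1 and Spred1 rose by 2.58 and 2.10, the immediate early gene Ier3 by 2.99 and Myc by 1.49. Among the Ets factors downstream of FGF, Etv4 had 0.0683, 0.190 and 0.0611 scaled TPM in XX mESC 1 to 3 and 7.45, 8.17 and 7.49 in XX EpiLC 1 to 3 (log2 fold change 2.98, SE 0.092, limma adjusted p 6.42e-06). Its relative Etv5 had 46.9, 39.8 and 46.5 scaled TPM in XX mESC 1 to 3 and 17.4, 18.0 and 17.8 in XX EpiLC 1 to 3 (log2 fold change -1.27, SE 0.10, limma adjusted p 0.000141). The groups did not overlap in either gene, and their changes had opposite signs.

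In the Nodal and Activin pathway the Lefty genes rose, while Gdf3 and Pcsk6 fell. Nodal and Activin bind ACVR receptors and signal through SMAD2 and SMAD3 with FOXH1, and LEFTY proteins inhibit Nodal. 9 of 18 tested genes were called higher (50.0% against 24.5%) and 2 lower, and 5 and 2 of the 14 with a mean of at least 1 in both groups. The ligand Nodal had 8.99, 17.9 and 8.45 scaled TPM in XX mESC 1 to 3 and 21.8, 22.3 and 22.1 in XX EpiLC 1 to 3 (log2 fold change 0.93, SE 0.27, limma adjusted p 0.0292). The related ligand Gdf3 fell from 15.3 ± 3.09 to 5.86 ± 0.338 scaled TPM. The convertase Pcsk6, which can process Nodal, fell from 22.2 ± 1.22 to 3.87 ± 0.590 scaled TPM (log2 fold change -2.26, SE 0.12, limma adjusted p 2.82e-05). Of the targets, Lefty1 had 0.135, 0.0973 and 0.0816 scaled TPM in XX mESC 1 to 3 and 15.2, 14.9 and 16.2 in XX EpiLC 1 to 3 (log2 fold change 3.90, SE 0.082, limma adjusted p 3.20e-06). Lefty2 had 0.337, 1.67 and 0.187 scaled TPM in XX mESC 1 to 3 and 11.3, 10.2 and 10.5 in XX EpiLC 1 to 3 (log2 fold change 2.85, SE 0.30, limma adjusted p 0.000520). Both inhibitors were higher in every EpiLC library than in any mESC library. Skil, a SMAD corepressor induced by the pathway, rose by 2.06. The coreceptor Tdgf1 (0.59), Foxh1 (0.31), Smad2 (-0.032) and Smad3 (-0.23) were not called.

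Most tested BMP pathway genes rose. 9 of 11 tested genes were called higher and 2 were not called, of 20 listed; 4 of 6 with a mean of at least 1 in both groups were higher. The ligand Bmp4 had 1.65, 0.126 and 0.657 scaled TPM in XX mESC 1 to 3 and 8.28, 8.18 and 7.29 in XX EpiLC 1 to 3 (log2 fold change 2.39, SE 0.30, limma adjusted p 0.00102). The receptor Bmpr1a rose from 10.1 ± 0.440 to 18.5 ± 1.18 scaled TPM, the antagonist Nog by 1.54, and the target Id2 from 15.2 ± 2.26 to 27.4 ± 1.36 scaled TPM. Id1 rose from 0.243 ± 0.120 to 1.97 ± 0.173 scaled TPM, and Id3 did not pass the filter.

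The genes of both chains of the receptor for LIF, which the EpiLC medium lacks, fell. Lifr had 5.87, 5.31 and 6.74 scaled TPM in XX mESC 1 to 3 and 1.38, 1.58 and 1.61 in XX EpiLC 1 to 3 (log2 fold change -1.46, SE 0.11, limma adjusted p 0.000105). Il6st, which encodes gp130, had 8.73, 12.4 and 9.92 scaled TPM in XX mESC 1 to 3 and 5.59, 4.72 and 4.81 in XX EpiLC 1 to 3 (log2 fold change -0.90, SE 0.14, limma adjusted p 0.00271). The groups did not overlap in either. Stat3 had a log2 change of 0.28 (limma adjusted p 0.206) and its feedback target Socs3 -0.18 (adjusted p 0.516), and neither was called. Junb, an immediate early gene on the same list, rose from 2.16 ± 0.848 to 14.4 ± 0.693 scaled TPM. Over the list 6 of 14 tested genes were higher and 3 lower, a share of higher calls of 42.9% against 24.5% of all tested genes.

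Notch, retinoid and Wnt genes gave mixed counts, where 24.5% of all tested genes were called higher and 24% lower. Among members with a mean of at least 1 scaled TPM in both groups, 4 of 10 Notch genes were higher and 1 lower. By the same condition 3 of 7 retinoid genes and 2 of 4 Wnt target genes were higher, and 0 were lower. In the Notch list 7 of 13 tested genes were higher and 1 lower, with the ligand Jag2 rising from 2.18 ± 1.04 to 19.8 ± 3.00 scaled TPM (log2 fold change 2.76, SE 0.28, limma adjusted p 0.000406) and the receptor Notch3 from 4.60 ± 2.02 to 12.5 ± 1.35 scaled TPM. In the retinoid list 4 of 10 were higher and 2 lower. Crabp2, a cytoplasmic retinoic acid carrier, had 0.173, 0.0179 and 0.313 scaled TPM in XX mESC 1 to 3 and 7.08, 7.71 and 6.97 in XX EpiLC 1 to 3 (log2 fold change 2.83, SE 0.12, limma adjusted p 1.27e-05). The receptor Rarg rose from 2.05 ± 0.937 to 14.3 ± 0.178 scaled TPM. Among Wnt target genes 5 of 9 were higher and 2 lower, with a median of 0.60 (-0.032 with no filter on low TPM). Axin2, a common readout of beta-catenin, had 2.00, 5.31 and 2.05 scaled TPM in XX mESC 1 to 3 and 2.47, 2.73 and 2.63 in XX EpiLC 1 to 3 (log2 fold change -0.10, limma adjusted p 0.802), with XX mESC 2 the highest library. The Wnt inhibitors Apcdd1 and Notum fell by 2.56 and 1.66 on the log2 scale.

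Genes of semaphorins, plexins, ephrins and Eph receptors, which guide cell movement and axons, had calls in both directions. 8 of 12 tested semaphorins and plexins were called higher and 2 lower; 5 had a mean under 1 scaled TPM in mESC, and of the 7 with a mean of at least 1 in both groups 3 were higher and 2 lower. The secreted Sema3e had 0.150, 0.0546 and 0.125 scaled TPM in XX mESC 1 to 3 and 6.69, 7.24 and 6.84 in XX EpiLC 1 to 3 (log2 fold change 2.84, SE 0.084, limma adjusted p 5.73e-06). Sema3b rose from 2.45 ± 1.32 to 9.97 ± 0.727 scaled TPM. Of the ephrins and their receptors 8 of 13 were higher and 1, Epha4, lower; of the 9 with a mean of at least 1 in both groups 4 were higher. The receptor Epha1 had 0.177, 0.0175 and 0.195 scaled TPM in XX mESC 1 to 3 and 6.25, 6.37 and 6.30 in XX EpiLC 1 to 3 (log2 fold change 2.70, SE 0.096, limma adjusted p 8.67e-06). Epha4 fell from 25.7 ± 6.08 to 2.17 ± 0.273 scaled TPM (log2 fold change -3.05, SE 0.19, limma adjusted p 5.28e-05). Epha2 rose from 7.57 ± 2.26 to 18.8 ± 1.28 scaled TPM. Without XX mESC 2, 4 ephrin and Eph genes were called lower.

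Antigen presentation genes rose, while Ifitm1 and Ifitm2, interferon-induced transmembrane genes, fell. MHC class I molecules carry peptides cut by the immunoproteasome and pumped by TAP to the cell surface. 12 of 20 tested genes (28 listed) were called higher and 4 lower (median 1.33); 8 of 16 with a mean of at least 1 in both groups were higher. The class I heavy chain H2-K1 had 2.56, 1.33 and 2.17 scaled TPM in XX mESC 1 to 3 and 27.3, 30.9 and 29.5 in XX EpiLC 1 to 3 (log2 fold change 3.35, SE 0.17, limma adjusted p 2.56e-05). Its light chain B2m had 30.2, 17.6 and 27.3 scaled TPM in XX mESC 1 to 3 and 172, 158 and 168 in XX EpiLC 1 to 3 (log2 fold change 2.71, SE 0.20, limma adjusted p 0.000114). H2-D1 rose by 1.55, the transporters Tap1 and Tap2 by 1.98 and 1.11, tapasin (Tapbp) by 1.64, and the immunoproteasome subunits Psmb8, Psmb9 and Psmb10 by 2.16, 1.60 and 0.75. The class I genes are polymorphic relatives, and reads shared between them cannot be separated in a TPM table.

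The transcription factor Irf1, which can drive these genes, had 2.26, 2.12 and 2.33 scaled TPM in XX mESC 1 to 3 and 12.0, 12.9 and 13.2 in XX EpiLC 1 to 3 (log2 fold change 2.08, SE 0.085, limma adjusted p 1.27e-05). The viral RNA sensor Ddx58 (RIG-I) had 0.252, 0.368 and 0.272 scaled TPM in XX mESC 1 to 3 and 5.75, 5.85 and 6.15 in XX EpiLC 1 to 3 (log2 fold change 2.42, SE 0.084, limma adjusted p 8.22e-06). Both were uniform within each group. By contrast Ifitm1 fell from 141 ± 8.38 to 29.3 ± 1.38 scaled TPM and Ifitm2 from 217 ± 81.4 to 110.3 ± 7.29 scaled TPM, and Mavs and Irf9 were also lower (-1.08 and -0.41). Isg15, Ifit1 and Irf7 did not pass the filter.

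The core of interferon response elements, a pair of GAAA half-sites with any 2 bases between them (both strands), was in 6 of 18 member windows, those of B2m, Bst2, Ddx58, Ifitm2, Ifitm3 and Stat2, and in 3.44% of all windows. It occurred in genes that rose, fell and were not called. Bst2, tetherin, rose from 7.67 ± 3.56 to 54.1 ± 0.238 scaled TPM, and the 250 bases before its start are shown (chr8:71537473-71537722, minus strand, read 5′ to 3′ along the gene), with 2 overlapping matches in capitals as 1 stretch, since they share a half-site.
Bst2: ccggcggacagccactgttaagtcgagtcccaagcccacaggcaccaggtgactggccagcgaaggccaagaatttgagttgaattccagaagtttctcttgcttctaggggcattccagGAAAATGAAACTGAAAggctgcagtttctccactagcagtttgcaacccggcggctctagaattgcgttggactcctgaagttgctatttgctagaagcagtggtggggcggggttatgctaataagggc

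Among p53 target genes fewer than 10 were called, with Pmaip1 changing most. 7 of 22 tested genes were higher and 1 lower, with 31.8% higher against 24.5% of all tested genes, and 11 and 6 without XX mESC 2. Noxa (Pmaip1), a BH3-only protein that counters MCL1, rose from 1.20 ± 0.573 to 17.7 ± 1.26 scaled TPM (log2 fold change 3.13, SE 0.21, limma adjusted p 7.60e-05). Perp rose from 14.9 ± 4.43 to 64.9 ± 6.44 scaled TPM and Btg2 from 15.2 ± 3.50 to 46.9 ± 0.682 scaled TPM. Cdkn1a (0.25), Bax (-0.050), Bbc3 (0.44) and Trp53 itself (-0.51) were not called. In the BCL2 family 6 of 15 tested genes were higher (40% against 24.5% of all tested genes), and 9 without XX mESC 2 (against 34.8%). The 6 were Pmaip1 and the other promoters of cell death Bcl2l11 (BIM, 2.00), Bmf (0.87) and Bak1 (0.97), and the survival genes Bcl2l1 (1.36) and Mcl1 (0.44).

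Stress response genes had calls in both directions, none above the shares of all tested genes (24.5% higher and 24% lower) with all 6 libraries. In the integrated stress response and unfolded protein response list 5 of 21 were higher and 3 lower (23.8% and 14.3%). Without XX mESC 2 these were 15 and 6, where 34.8% and 34.7% of all tested genes were called. Atf3 had 0.915, 1.06 and 0.768 scaled TPM in XX mESC 1 to 3 and 9.49, 9.60 and 9.51 in XX EpiLC 1 to 3 (log2 fold change 2.46, SE 0.091, limma adjusted p 9.49e-06). Asns, asparagine synthetase, fell from 286 ± 26.9 to 115 ± 5.70 scaled TPM, and Atf4 (0.30) and the chaperone Hspa5 (0.56) were not called. Of 15 heat shock chaperones 2 were higher and 2 lower (13.3% each), and 5 and 4 without XX mESC 2. Hsp90aa1, the cytosolic HSP90, had 1472, 1538 and 1487 scaled TPM in XX mESC 1 to 3 and 740.5, 656 and 649.9 in XX EpiLC 1 to 3 (log2 fold change -1.14, SE 0.14, limma adjusted p 0.000888).

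Among cell cycle genes, D-type cyclins rose and Cdk2 fell. D-type cyclins with CDK4 or CDK6 release the block that RB places on S-phase genes. 7 of 21 tested G1 genes were higher and 5 lower (33.3% and 23.8%, against 24.5% and 24% of all tested genes). The counts were 13 and 7 without XX mESC 2, where 34.8% and 34.7% of all tested genes were called. Limma called 7 higher and 0 lower on TPM as deposited, with 2 lower at an unadjusted p under 0.05. Ccnd1 rose by 1.42 and Ccnd2 by 1.43 on the log2 scale, Cdk6 by 1.11, and the inhibitors Cdkn1c and Cdkn1b by 1.09 and 0.50, and Rb1 by 0.86. Cdk2 fell from 24.8 ± 4.77 to 12.8 ± 0.275 scaled TPM and E2f1 by 0.84 on the log2 scale, and the inhibitor Cdkn2a fell from 9.47 ± 1.62 to 5.72 ± 0.246 scaled TPM (log2 fold change -0.63, SE 0.13, limma adjusted p 0.00918). Ccne1 had 5.93, 25.8 and 4.89 scaled TPM in XX mESC 1 to 3 and 13.2, 12.6 and 13.2 in XX EpiLC 1 to 3 and was not called, XX mESC 2 being the highest mESC library. Of 26 mitotic genes 6 were higher and 2 lower (23.1% and 7.69%, against 24.5% and 24% of all tested genes), and 19 and 2 without XX mESC 2.

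Glycolysis genes had calls in both directions. 8 of 24 tested genes were called higher and 4 lower (33.3% and 16.7%, against 24.5% and 24% of all tested genes), with a median of 0.46. The counts were 15 and 4 without XX mESC 2, where 34.8% and 34.7% of all tested genes were called. The lactate exporter Slc16a3 (MCT4) had 0.926, 0.301 and 0.994 scaled TPM in XX mESC 1 to 3 and 18.6, 17.0 and 20.2 in XX EpiLC 1 to 3 (log2 fold change 3.52, SE 0.18, limma adjusted p 2.89e-05). Pfkfb3, which makes an activator of phosphofructokinase, had 2.08, 0.331 and 1.86 scaled TPM in XX mESC 1 to 3 and 9.83, 10.5 and 10.3 in XX EpiLC 1 to 3 (log2 fold change 2.30, SE 0.32, limma adjusted p 0.00157). Eno3 rose from 2.26 ± 0.585 to 15.2 ± 0.682 scaled TPM. The glucose transporter Slc2a1 rose by 1.13 and Pdk1, which shuts pyruvate out of the citric acid cycle, by 1.35. Hexokinase Hk1 had 29.2, 18.5 and 31.7 scaled TPM in XX mESC 1 to 3 and 5.63, 6.52 and 6.47 in XX EpiLC 1 to 3 (log2 fold change -1.90, SE 0.21, limma adjusted p 0.000564). Phosphofructokinase Pfkp fell from 38.7 ± 3.93 to 5.82 ± 0.553 scaled TPM and Ldhb from 158 ± 25.1 to 70.3 ± 4.06 scaled TPM. The abundant enzymes Gapdh (-0.11), Ldha (0.042), Pgk1 (0.40) and Pkm (0.81) were not called.

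Genes of the citric acid cycle and of pyruvate entry were called lower more often than higher. 9 of 25 tested genes were called lower and 1 higher, 36.0% against a background of 24%, with a median of -0.18 (-0.042 without XX mESC 2, and 0.0096 on TPM as deposited, where that of all genes was 0.15). There 3 were called lower, against 11.4% of all tested genes, and 12 without XX mESC 2, against 34.7%. Idh2, the mitochondrial NADP-dependent isocitrate dehydrogenase, had 106, 95.2 and 104 scaled TPM in XX mESC 1 to 3 and 32.8, 32.4 and 34.9 in XX EpiLC 1 to 3 (log2 fold change -1.58, SE 0.096, limma adjusted p 5.09e-05). Sucla2, a succinyl-CoA synthetase subunit, fell from 59.5 ± 9.33 to 20.0 ± 0.790 scaled TPM, and the mitochondrial pyruvate carrier Mpc1 fell by 1.18 on the log2 scale. The entry enzyme Cs (0.21) and Ogdh (0.063) were not called.

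Fatty acid oxidation genes were called lower more often than other genes of the table. 11 of 20 tested genes were called lower (55.0% against 24%) and 2 higher (median -0.42), and 5 and 2 on TPM as deposited. Slc25a20, the carrier of acylcarnitine into mitochondria, had 36.7, 24.7 and 36.3 scaled TPM in XX mESC 1 to 3 and 3.07, 2.93 and 2.96 in XX EpiLC 1 to 3 (log2 fold change -3.05, SE 0.16, limma adjusted p 3.24e-05). Cpt1a, which makes acylcarnitine at the outer membrane, had 19.3, 12.6 and 21.4 scaled TPM in XX mESC 1 to 3 and 5.76, 6.36 and 5.79 in XX EpiLC 1 to 3 (log2 fold change -1.40, SE 0.20, limma adjusted p 0.00165). The thiolase Acaa2 fell from 29.7 ± 3.95 to 7.71 ± 0.450 scaled TPM. Etfb and Hadh also fell, by 1.38 and 1.31 on the log2 scale. Against this, Cpt1b, the muscle form of the CPT1 enzyme, rose from 0.566 ± 0.315 to 5.22 ± 0.365 scaled TPM and the dehydrogenase Acadl from 3.44 ± 1.50 to 13.7 ± 0.798 scaled TPM.

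More tested sterol genes were called higher than lower, and XX mESC 2 stood between the groups for Fdps. SREBP2 (Srebf2) induces the enzymes of cholesterol synthesis. 13 of 24 tested genes were called higher and 2 lower (54.2% and 8.33%, against 24.5% and 24% of all tested genes), with a median of 0.63. The counts were 22 and 2 without XX mESC 2 (34.8% and 34.7% of all tested genes). They were 9 and 1 on TPM as deposited (21.2% and 11.4% of all tested genes). Fdps, farnesyl diphosphate synthase, had 29.0, 83.1 and 26.2 scaled TPM in XX mESC 1 to 3 and 108, 102 and 108 in XX EpiLC 1 to 3 (log2 fold change 1.39, SE 0.42, limma adjusted p 0.0354; log2 fold change 1.89 without XX mESC 2). For Fdps, XX mESC 2 lay closer to the EpiLC libraries than XX mESC 1 and 3 did. Mvd, an enzyme of the mevalonate pathway, rose from 8.54 ± 5.70 to 20.9 ± 1.73 scaled TPM. Ebp, an X-linked sterol isomerase, fell from 20.9 ± 1.49 to 7.80 ± 0.831 scaled TPM.

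**Figure D3:**
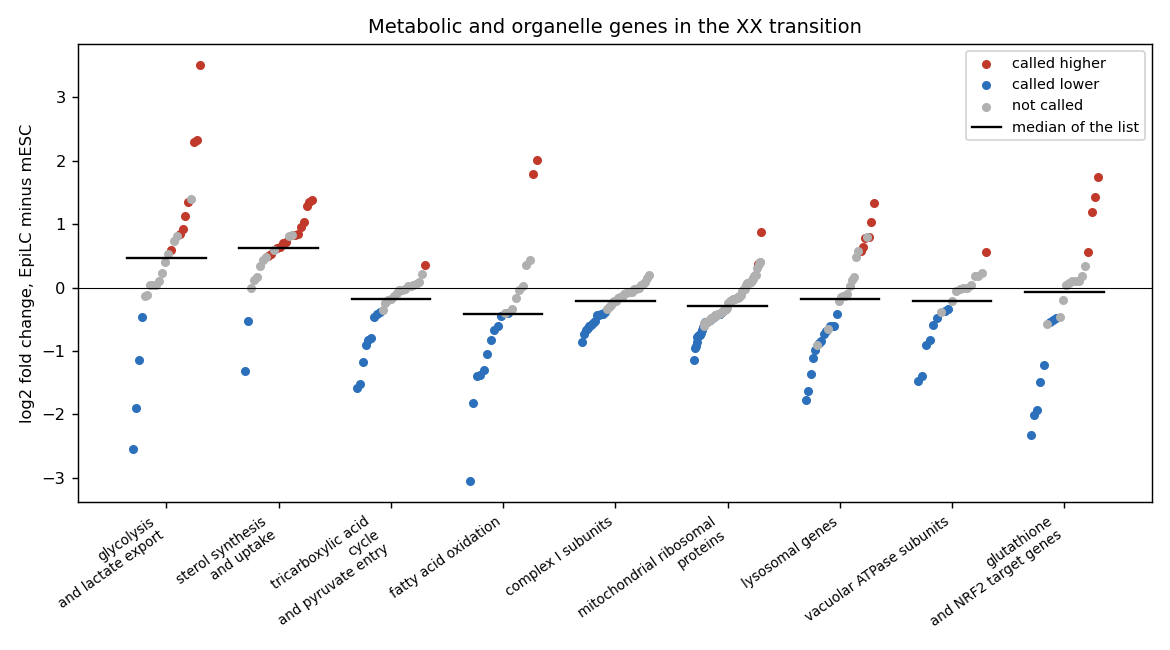
Log2 fold change (XX EpiLC minus XX mESC) of every tested member of 9 metabolic and organelle lists, one point per gene, coloured by call, with a line at the list's median. The median is 0.63 for sterol synthesis and -0.42 for fatty acid oxidation.

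In threonine and glycine metabolism Tdh, Amt and Shmt1 fell. Mouse mESC break down threonine with TDH, whose product feeds the glycine cleavage system and one-carbon units. 4 of 19 tested genes were lower (21.1%, near the background of 24%) and 1 higher, and 5 and 7 without XX mESC 2. Tdh had 75.7, 178 and 72.7 scaled TPM in XX mESC 1 to 3 and 14.6, 15.0 and 15.1 in XX EpiLC 1 to 3 (log2 fold change -2.66, SE 0.34, limma adjusted p 0.00116), with XX mESC 2 the highest. Amt, of the glycine cleavage system, fell from 66.4 ± 3.48 to 25.6 ± 1.24 scaled TPM and Shmt1 from 32.0 ± 6.86 to 11.9 ± 0.389 scaled TPM, while the serine synthesis gene Phgdh (0.17) and the mitochondrial Shmt2 (-0.040) were not called.

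Glutathione and NRF2 target genes moved both ways. 4 of 22 tested genes were higher and 8 lower (18.2% and 36.4%, against 24.5% and 24% of all tested genes). The counts were 10 and 9 without XX mESC 2, where 34.8% and 34.7% of all tested genes were called. The median of the list was -0.074, and 0.11 on TPM as deposited. Nqo1, a quinone reductase induced by NRF2, had 68.2, 54.4 and 62.2 scaled TPM in XX mESC 1 to 3 and 12.2, 11.0 and 11.1 in XX EpiLC 1 to 3 (log2 fold change -2.33, SE 0.11, limma adjusted p 2.23e-05). Gss, which completes glutathione, fell from 29.5 ± 7.59 to 6.82 ± 0.416 scaled TPM and the transferase Gsto1 from 93.0 ± 9.34 to 22.3 ± 1.46 scaled TPM. Gclm, the modifier of the first glutathione step, had 7.02, 15.4 and 6.26 scaled TPM in XX mESC 1 to 3 and 33.1, 29.5 and 34.2 in XX EpiLC 1 to 3 (log2 fold change 1.75, SE 0.31, limma adjusted p 0.00428). Genes of successive steps of glutathione synthesis thus had opposite signs. Hmox1 and Gpx3 rose by 1.19 and 1.43.

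Lysosomal genes had calls in both directions, and the side with more calls depended on the scaling. 13 of 32 tested lysosomal genes were called lower and 6 higher (40.6% lower against 24%), with a median of -0.18. On TPM as deposited 4 were lower and 6 higher, against 11.4% and 21.2% of all tested genes (median 0.017). Without XX mESC 2, 21 were lower and 10 higher, against 34.7% and 34.8% (median -0.49). Glb1, lysosomal beta-galactosidase, had 37.6, 19.3 and 35.2 scaled TPM in XX mESC 1 to 3 and 8.57, 7.38 and 7.72 in XX EpiLC 1 to 3 (log2 fold change -1.78, SE 0.25, limma adjusted p 0.00170). Ctsa, a lysosomal protease, fell from 78.7 ± 36.8 to 22.4 ± 3.30 scaled TPM, with XX mESC 2 below the other mESC libraries. Tfe3, a factor that drives lysosomal genes, rose by 0.58, Naglu by 1.33 and Laptm4a from 45.7 ± 6.25 to 80.3 ± 4.14 scaled TPM, and Lamp1 (-0.14) was not called. Of 19 tested subunits of the proton pump that acidifies lysosomes 8 were lower (42.1% against 24%) and 1 higher. On TPM as deposited 2 of these subunits were lower, against 11.4% of all tested genes.

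Respiratory chain and ribosomal genes had small shifts. Of 36 nuclear subunits of complex I 13 were called lower (36.1% against 24%) and 23 were not called, and Ndufb4 fell most, by 0.85 on the log2 scale. Without XX mESC 2, 14 of them were lower and 5 higher, and their median moved from -0.21 to -0.038. On TPM as deposited limma called 0 of the 36 lower, with 1 at an unadjusted p under 0.05. Of 14 cytochrome oxidase and 16 ATP synthase subunits 3 and 3 were lower (21.4% and 18.8%, under the background of 24%). Among them were Cox7b2 (-2.99) and Atp5g1 (-1.18). Without XX mESC 2 4 and 5 were lower and 1 and 3 higher, against 34.7% and 34.8% of all tested genes. Without scaling 1 cytochrome oxidase subunit was lower, and limma called 0 ATP synthase subunits lower, with 1 at an unadjusted p under 0.05. 5 of 13 mitochondrially encoded protein genes were lower (38.5% against 24%) and 8 not called. On TPM as deposited 1 was lower, where 11.4% of all tested genes were. mt-Nd4 had 380.3, 252 and 300.3 scaled TPM in XX mESC 1 to 3 and 194, 178 and 137 in XX EpiLC 1 to 3 (log2 fold change -0.86, SE 0.21, limma adjusted p 0.0145). Of 78 mitochondrial ribosomal protein genes 2 were higher and 20 lower (2.56% and 25.6%, against 24.5% and 24% of all tested genes). The counts were 13 and 34 without XX mESC 2, where 34.8% and 34.7% of all tested genes were called. On TPM as deposited they were 1 and 2, against 21.2% and 11.4%.

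Of 83 cytoplasmic ribosomal protein genes 15 were called lower (18.1%, under the background of 24%) and 68 were not called. Without XX mESC 2 32 were lower and 4 higher, against 34.7% and 34.8% of all tested genes. On TPM as deposited 2 were lower, against 11.4%. The steepest falls were in the testis-associated paralogues Rpl10l, with 54.9, 32.9 and 51.9 scaled TPM in XX mESC 1 to 3 and 1.49, 1.26 and 1.36 in XX EpiLC 1 to 3 (log2 fold change -4.29, SE 0.20, limma adjusted p 1.88e-05), and Rpl39l. The latter had 33.9, 33.3 and 27.7 scaled TPM in XX mESC 1 to 3 and 1.48, 1.11 and 0.892 in XX EpiLC 1 to 3 (log2 fold change -3.92, SE 0.14, limma adjusted p 8.67e-06). Both were high in all mESC libraries and under 2 scaled TPM in all EpiLC libraries. Rpl39, the parent gene of Rpl39l, fell by 0.80 on the log2 scale. Reads of the retrogene copies can be split with their parents.

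Polycomb genes had calls in both directions, with core PRC2 genes among those that fell. PRC2 methylates histone H3 through EZH2 with SUZ12 and EED, and PRC1 ubiquitinates H2A. 10 of 31 tested genes were lower and 6 higher (32.3% and 19.4%, against 24% and 24.5% of all tested genes). The counts were 18 and 9 without XX mESC 2, where 34.7% and 34.8% of all tested genes were called. On TPM as deposited they were 6 and 4, against 11.4% and 21.2%. Suz12 had 77.9, 60.4 and 81.1 scaled TPM in XX mESC 1 to 3 and 28.3, 26.7 and 26.1 in XX EpiLC 1 to 3 (log2 fold change -1.39, SE 0.14, limma adjusted p 0.000361). The PRC2 recruiter Mtf2 fell from 121 ± 10.7 to 58.6 ± 1.81 scaled TPM, and Eed fell by 0.88 on the log2 scale. Ezh2 had a log2 change of -0.51 (limma adjusted p 0.0523) and was not called. Kdm2b, which brings a PRC1 variant to unmethylated CpG islands, had 42.6, 26.7 and 42.2 scaled TPM in XX mESC 1 to 3 and 8.48, 10.4 and 10.0 in XX EpiLC 1 to 3 (log2 fold change -1.82, SE 0.20, limma adjusted p 0.000588). Bmi1 fell from 6.76 ± 0.531 to 1.58 ± 0.158 scaled TPM. Phc1 rose from 11.1 ± 2.59 to 21.7 ± 0.403 scaled TPM and Pcgf5 by 0.87, so PRC1 members moved both ways.

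In other chromatin complexes the counts differed. Over all tested genes 24.5% were called higher and 24% lower. These shares were 34.8% and 34.7% without XX mESC 2, and 21.2% and 11.4% on TPM as deposited. In the BAF complex, an ATP-dependent remodeller, 7 of 20 tested genes were higher and 1 lower (35% and 5%), and 13 and 2 without XX mESC 2. Bcl7c rose from 7.73 ± 1.49 to 18.8 ± 1.34 scaled TPM and Arid1a from 3.84 ± 0.342 to 8.02 ± 1.04 scaled TPM. In NuRD, a deacetylase remodeller, 6 of 16 were higher and 2 lower (37.5% and 12.5%), and 3 were higher on TPM as deposited. Chd4 rose from 25.3 ± 2.69 to 51.2 ± 3.99 scaled TPM, while Hdac2 fell from 57.5 ± 4.23 to 27.9 ± 2.92 scaled TPM and Zfp296 from 11.8 ± 1.46 to 1.62 ± 0.293 scaled TPM. In the DNA methylation machinery 4 of 13 were higher and 6 lower (30.8% and 46.2%), and 4 and 2 on TPM as deposited. The de novo enzyme Dnmt3b had 4.04, 8.58 and 3.96 scaled TPM in XX mESC 1 to 3 and 23.7, 23.8 and 24.7 in XX EpiLC 1 to 3 (log2 fold change 2.01, SE 0.26, limma adjusted p 0.00122). Dnmt3a had 2.35, 0.711 and 2.58 scaled TPM in XX mESC 1 to 3 and 6.71, 7.14 and 8.31 in XX EpiLC 1 to 3 (log2 fold change 1.61, SE 0.29, limma adjusted p 0.00459). Tet2, which oxidises methylcytosine, fell from 15.1 ± 3.16 to 2.42 ± 0.139 scaled TPM, and Dppa3, which keeps UHRF1 from maintaining methylation, fell from 69.5 ± 35.7 to 2.67 ± 0.196 scaled TPM. Of the retroelement silencers 4 of 21 were higher and 7 lower, with a median of -0.14 (0.045 on TPM as deposited and 0.053 without XX mESC 2). Limma called 2 of them higher and 0 lower on TPM as deposited, with 1 lower at an unadjusted p under 0.05. With scaling, Trim28 had a log2 change of -0.89.

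Both Lin28 genes rose. LIN28 proteins block the maturation of let-7 microRNAs, which repress Hmga and Igf2bp transcripts. Lin28a had 0.657, 1.58 and 0.481 scaled TPM in XX mESC 1 to 3 and 49.5, 46.0 and 46.0 in XX EpiLC 1 to 3 (log2 fold change 4.70, SE 0.21, limma adjusted p 1.63e-05). Lin28b had 0.0746, 0.206 and 0.0495 scaled TPM in XX mESC 1 to 3 and 4.24, 4.72 and 4.68 in XX EpiLC 1 to 3 (log2 fold change 2.32, SE 0.095, limma adjusted p 1.27e-05). Trim71, another let-7 target, rose from 10.5 ± 1.81 to 24.7 ± 1.66 scaled TPM and Hmga1 from 31.7 ± 18.5 to 100.1 ± 4.64 scaled TPM, but Igf2bp2 fell from 7.66 ± 3.33 to 2.04 ± 0.0608 scaled TPM. In the list 7 of 19 tested genes were higher and 2 lower (36.8% and 10.5%, against 24.5% and 24% of all tested genes). The counts were 12 and 2 without XX mESC 2, where 34.8% and 34.7% of all tested genes were called.

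Most tested germline genes fell. Many are silenced by promoter methylation in somatic cells and are transcribed in hypomethylated mESC. 13 of 20 tested genes were called lower and 1, Ddx4, higher (median -1.74); 10 had a mean under 1 scaled TPM in EpiLC, and of the 8 above that in both groups 5 were lower. Dazl had 101, 14.5 and 97.5 scaled TPM in XX mESC 1 to 3 and 0.432, 0.253 and 0.371 in XX EpiLC 1 to 3 (log2 fold change -5.32, SE 0.72, limma adjusted p 0.00145). Hormad1, a meiotic chromosome axis protein, had 44.1, 25.8 and 38.7 scaled TPM in XX mESC 1 to 3 and 2.08, 1.87 and 1.51 in XX EpiLC 1 to 3 (log2 fold change -3.69, SE 0.21, limma adjusted p 3.81e-05). XX mESC 2 held the lowest mESC level of both, and without it the fold changes were -6.18 and -3.90. Stk31, Piwil2 and Brdt fell on the log2 scale by 2.00, 1.88 and 1.67. Ddx4, known as Vasa, had 1.19, 0.463 and 1.35 scaled TPM in XX mESC 1 to 3 and 2.31, 2.49 and 2.34 in XX EpiLC 1 to 3 (log2 fold change 0.78, SE 0.19, limma adjusted p 0.0141).

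The E-box CACGTG (both strands), a MAX binding site found in several germline promoters, was in 9 of 17 member windows and in 7.15% of all windows, and also in 9 of 24 windows of the lysosomal list. The 250 bases before the start of Hormad1 (chr3:95559427-95559676, plus strand) hold 2 copies, in capitals.
Hormad1: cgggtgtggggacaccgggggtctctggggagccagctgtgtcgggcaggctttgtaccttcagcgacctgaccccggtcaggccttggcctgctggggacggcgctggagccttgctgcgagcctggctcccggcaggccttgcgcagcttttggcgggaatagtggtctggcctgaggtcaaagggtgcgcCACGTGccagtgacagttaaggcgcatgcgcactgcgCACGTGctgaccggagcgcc

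The tested members of the X-linked multicopy Xlr and Rhox families fell. All 9 tested Xlr genes of 9 annotated and all 7 tested Rhox genes of 34 were called lower, with medians of -3.23 and -2.17. 6 of these Xlr genes and 5 of these Rhox genes had a mean under 1 scaled TPM in EpiLC and passed the filter on their mESC levels, which leaves 3 and 2 with a mean of at least 1 in both groups, all called lower. Xlr4b had 41.4, 17.7 and 39.5 scaled TPM in XX mESC 1 to 3 and 0.503, 0.691 and 0.571 in XX EpiLC 1 to 3 (log2 fold change -4.32, SE 0.32, limma adjusted p 0.000105). Rhox13, a homeobox gene of germ cells, had 30.7, 7.97 and 27.4 scaled TPM in XX mESC 1 to 3 and 0.968, 0.703 and 0.743 in XX EpiLC 1 to 3 (log2 fold change -3.48, SE 0.47, limma adjusted p 0.00147). Rhox5, the most abundant of the Rhox genes tested, fell from 402 ± 29.1 to 117 ± 3.72 scaled TPM and stayed above 100 scaled TPM in every EpiLC library. All 5 tested Pramel genes, of 12 annotated, were called lower as well, 2 of them with a mean of at least 1 in both groups, with Pramel6 and Pramel7 falling most. Members of these families are near-identical, so values of single members are uncertain.

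The X chromosome as a whole had more genes called lower than higher. Xist had 0.271, 0.131 and 0.325 scaled TPM in XX mESC 1 to 3 and 25.3, 29.8 and 28.5 in XX EpiLC 1 to 3 (log2 fold change 4.54, SE 0.11, limma adjusted p 3.66e-06). Its antisense partner Tsix rose from 2.25 ± 0.162 to 5.20 ± 0.890 scaled TPM; the kit keeps the strand, but whether the counting used it is not given in the sources used here, so reads of the pair may be mixed. Of 475 tested X-linked genes 96 were called higher (20.2%) and 184 lower (38.7%), against 24.7% and 23.4% of 12040 autosomal genes. The median log2 fold change was -0.23 for X-linked and -0.0050 for autosomal genes (-0.060 and 0.16 on TPM as deposited). Without the 22 Xlr, Rhox and Fthl17 genes 35.8% of 453 X-linked genes were lower and the median was -0.19. Without XX mESC 2 the share of X-linked genes called lower was 51.2%, and that of autosomal genes 34.0%. Among autosomes, chromosome 13 had the highest share of genes called lower (31.3%) and chromosome 18 the lowest (17.1%).

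**Figure D4:**
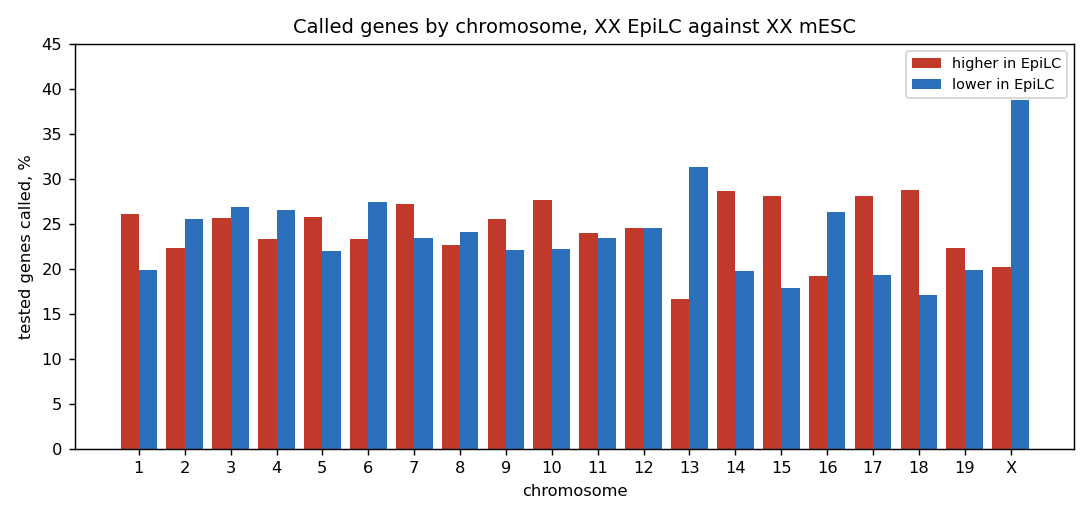
Share of tested genes called higher and lower in XX EpiLC on each chromosome, in percent. The X chromosome has 38.7% of its genes called lower, more than any autosome.

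Long intergenic RNAs were called lower more often than coding genes. 106 of 233 tested lincRNA genes were called lower (45.5%) and 38 higher, against 24.3% lower among protein-coding genes. A gene could pass the filter on its mESC levels alone, so these shares depend on which genes entered. Of the Platr RNAs, named for their association with pluripotency, 12 of 18 tested genes were lower and 3 higher. The mean in EpiLC was under 1 scaled TPM for 4 of them. Of the 13 with a mean of at least 1 in both groups 8 were lower and 2 higher. Platr16 had 23.1, 11.7 and 20.3 scaled TPM in XX mESC 1 to 3 and 1.38, 1.18 and 1.04 in XX EpiLC 1 to 3 (log2 fold change -3.09, SE 0.24, limma adjusted p 0.000141). Platr22 had 0.138, 0.0391 and 0.162 scaled TPM in XX mESC 1 to 3 and 7.03, 8.52 and 7.10 in XX EpiLC 1 to 3 (log2 fold change 2.94, SE 0.11, limma adjusted p 8.91e-06). Among long non-coding genes with the steepest rises were the imprinted RNAs Rian, with 16.0, 14.0 and 16.1 scaled TPM in XX mESC 1 to 3 and 166, 166 and 166 in XX EpiLC 1 to 3 (log2 fold change 3.35, SE 0.097, limma adjusted p 5.16e-06), Mirg (3.22) and H19 (3.30). These 3 RNAs are expressed from the maternal allele in mouse tissues. Tslrn1, an X-linked lincRNA, had 34.2, 22.1 and 28.0 scaled TPM in XX mESC 1 to 3 and 0.299, 0.433 and 0.210 in XX EpiLC 1 to 3 (log2 fold change -4.45, SE 0.17, limma adjusted p 1.03e-05). Gm40977 fell by 4.38 on the log2 scale. AY036118 was listed at 0 in XX mESC 1 and 2, at 0.0351 in XX mESC 3 and at 1182, 3515 and 1706 scaled TPM in XX EpiLC 1 to 3, so no fold is given. Its level was uneven across the series, with a fall from mESC to EpiLC in Tet3-/- cells and a rise in XY cells. Neither difference from the XX transition was called (SE 3.54 and 3.65 log2 units, limma adjusted p 0.0744 and 0.902).

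Counts in some families moved with XX mESC 2, as did those of all tested genes. Over all tested genes 24.5% were called higher and 24% lower with XX mESC 2, and 34.8% and 34.7% without it. Small nucleolar RNAs guide modification of other RNAs. Of 149 tested genes annotated as snoRNA 7 were higher and 6 lower with it, and 8 and 57 without it. Of 38 proteasome subunit genes 3 were higher and 4 lower with it, and 18 and 5 without it. Of 62 replication-dependent histone genes 3 were higher and 10 lower with it, and 23 and 13 without it.

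Transcription factor families held genes of both directions. Of 7 tested Sox genes 4 were higher and 2 lower (57.1% and 28.6%, against 24.5% and 24% of all tested genes). Among the 3 with a mean of at least 1 scaled TPM in both groups 1 was higher and 2 lower. Their median was 0.70, and -0.94 with a TPM of at least 5 required. Sox11, a factor of neural and epithelial progenitors, had 0.0142, 0.00761 and 0.0143 scaled TPM in XX mESC 1 to 3 and 4.22, 4.27 and 4.18 in XX EpiLC 1 to 3 (log2 fold change 2.37, SE 0.075, limma adjusted p 6.42e-06). Sox4 rose from 0.805 ± 0.365 to 5.44 ± 0.0421 scaled TPM, and Sox2 fell. Of 16 Fox genes 7 were higher and 2 lower (43.8% and 12.5%), and 3 and 1 of the 11 with a mean of at least 1 in both groups. The ciliogenesis factor Foxj1 rose from 0.338 ± 0.193 to 9.52 ± 0.515 scaled TPM and Foxp1 by 1.92. Of 292 tested zinc finger genes named Zfp 90 were lower (30.8%) and 53 higher, with a median of -0.10. On TPM as deposited 45 were lower and 39 higher, and the median was 0.041. The steepest falls were in Zfp978 (-3.05), Zfp981 (-3.01), Zfp600 (-2.85), Zfp980 (-2.71) and Zfp982 (-2.69), which are related genes whose reads can be shared. Zfp36, a factor that destabilises AU-rich mRNAs, rose from 0.658 ± 0.0246 to 10.2 ± 1.04 scaled TPM.

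Among cytoskeletal and transport families, isotypes also had opposite signs. The shares called higher and lower were near those of all tested genes (24.5% and 24%) for tubulins (23.1% and 30.8%) and Rab GTPases (26.8% and 19.5%). Of 13 tested tubulins 3 were higher and 4 lower, and 9 and 4 without XX mESC 2. Alpha-tubulin Tuba1a had 16.6, 35.4 and 14.2 scaled TPM in XX mESC 1 to 3 and 230.3, 210.4 and 214 in XX EpiLC 1 to 3 (log2 fold change 3.36, SE 0.32, limma adjusted p 0.000339). Beta-tubulin Tubb2b fell from 62.1 ± 17.0 to 24.7 ± 0.701 scaled TPM. Of 29 kinesins 9 were higher and 4 lower (31.0% and 13.8%). The counts were 13 and 7 without XX mESC 2, where 34.8% and 34.7% of all tested genes were called. Kif1a, a kinesin of vesicle transport, had 0.205, 0.0862 and 0.270 scaled TPM in XX mESC 1 to 3 and 24.5, 28.2 and 27.7 in XX EpiLC 1 to 3 (log2 fold change 4.55, SE 0.10, limma adjusted p 3.25e-06). Kif5a fell from 3.03 ± 0.832 to 0.405 ± 0.0505 scaled TPM. Of 41 Rab GTPases 11 were higher and 8 lower (19 and 12 without XX mESC 2), with the epithelial Rab25 rising by 2.38 and Rab15 from 1.84 ± 0.237 to 16.2 ± 1.33 scaled TPM. Of 194 solute carriers 51 were higher and 66 lower (26.3% and 34.0%), and 41 and 31 on TPM as deposited. The metal transporter Slc39a8 rose from 0.228 ± 0.137 to 8.24 ± 0.321 scaled TPM and its relative Slc39a11 fell from 37.3 ± 14.7 to 2.59 ± 0.313 scaled TPM. The glutamate transporters Slc1a3 and Slc1a1 likewise had opposite signs, 2.17 and -3.56.

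The XX transition differed from the XY transition for many genes. Differences of transitions, here and for Tet3-/- below, were tested only for genes that passed the filter in the XX libraries. A gene present in the other libraries alone was not tested. In a fit of all 19 libraries, scaled together (so that values differ slightly from those of the 6 libraries), the difference of transitions (XX minus XY) was called for 2863 genes (22.8%). It was above 0 for 1408 of them (11.2% of tested genes) and below 0 for 1455 (11.6%). Without scaling 1623 were called, 25.0% of them above 0 in place of 49.2%, with a median difference of all genes of -0.40. Of the S100 proteins and annexins 11 of 15 were called higher in XX (median difference 1.59), and of the glutathione genes 13 of 22 (median 0.95). The same held for 10 of 23 contractile genes (0.82), 8 of 20 interferon and antigen presentation genes (0.73) and 7 of 17 ERK genes (0.83). The mean in XX mESC was under 1 scaled TPM for 9 of these 17 ERK, 6 of 23 contractile and 4 of 20 interferon genes. It was so for 1 of the 15 S100 proteins and annexins and 0 of the 22 glutathione genes. Such genes could pass the filter on their XX EpiLC levels alone, the group where they were high. Of the Xlr genes 8 of 9 were called lower in XX, but 6 of the 9 had passed the filter on their XX mESC levels, with a mean under 1 scaled TPM in XX EpiLC. For the naive list 9 of 14 genes were called higher in XX. Of these 9, Dppa4 rose in XX and the other 8 fell less in XX than in XY. For the formative list 8 of 13 were called lower.

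Levels in both lines show where these differences lay. S100a6 went from 11.1 ± 3.23 to 310.0 ± 13.4 scaled TPM in XX and from 2.73 ± 0.464 to 5.68 ± 1.07 scaled TPM in XY (difference of log2 fold changes 3.88, limma adjusted p 4.77e-07). Anxa2 went from 22.8 ± 3.34 to 149.9 ± 1.50 scaled TPM in XX and from 27.7 ± 5.92 to 18.2 ± 2.14 scaled TPM in XY (difference 3.24, limma adjusted p 6.78e-07). Tagln went from 0.0226 ± 0.0208 to 98.9 ± 3.04 scaled TPM in XX and from 0.0405 ± 0.0437 to 8.04 ± 1.13 scaled TPM in XY (difference 3.50, limma adjusted p 1.99e-08). All 3 reached higher levels in XX EpiLC than in XY EpiLC, from mESC levels that were low in both lines for Tagln and about equal for Anxa2. S100a6 was already higher in XX mESC (8.65 to 14.8 scaled TPM) than in XY mESC (2.27 to 3.20).

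For further genes, too, the lines already differed as mESC. Otx2 went from 23.3 ± 5.78 to 11.7 ± 0.334 scaled TPM in XX and from 1.65 ± 0.433 to 40.4 ± 1.51 scaled TPM in XY (difference -4.88, limma adjusted p 1.34e-09). Pramel7 went from 60.7 ± 24.3 to 0.297 ± 0.0512 scaled TPM in XX and from 0.166 ± 0.0651 to 0.167 ± 0.0497 scaled TPM in XY (difference -5.48, limma adjusted p 2.80e-06). 1700013H16Rik went from 107 ± 66.0 to 0.631 ± 0.280 scaled TPM in XX and from 0.782 ± 0.168 to 2.40 ± 0.293 scaled TPM in XY (difference -6.71, limma adjusted p 4.51e-07). In these genes XY mESC held little transcript, whereas XX mESC held much. Fgf5, near 0 in the mESC of both lines, reached 2.60 ± 0.142 scaled TPM in XX EpiLC and 36.4 ± 1.03 in XY EpiLC (difference -3.25, limma adjusted p 0.000816). The difference was not called for Car4 (-0.16, SE 0.22), Kif1a (0.26, SE 0.31), Tpm1 (0.32, SE 0.31) or H2-K1 (0.48, SE 0.31).

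The difference from the Tet3-/- transition was called for 108 genes (0.862%), 68 (0.543%) higher and 40 (0.319%) lower in XX, and both differences use the same XX libraries. Without XX mESC 2 it was called for 339 genes, without any other single XX library for 51 to 63, and without Tet3-/- EpiLC 3 for 167. Tet3, the deleted gene, summed over its transcripts, had 0.665 ± 0.141 scaled TPM in the Tet3-/- mESC (n = 4) and 1.15 ± 0.150 in the Tet3-/- EpiLC, against 0.922 ± 0.302 and 1.74 ± 0.290 in XX; the labels do not give the deleted stretch, so this sum does not check the genotype. Car4 went from 0.123 ± 0.101 to 157 ± 46.0 scaled TPM in Tet3-/- cells and from 0.121 ± 0.0683 to 67.1 ± 3.19 scaled TPM in XX. Of the 24 genes named for the largest changes only Car4 was called against Tet3-/-, with a difference of -1.18 (limma adjusted p 0.0118). Of the Xlr genes 4 of 9 were called lower in XX, and of the naive genes 3 of 14 higher.

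**Figure D5:**
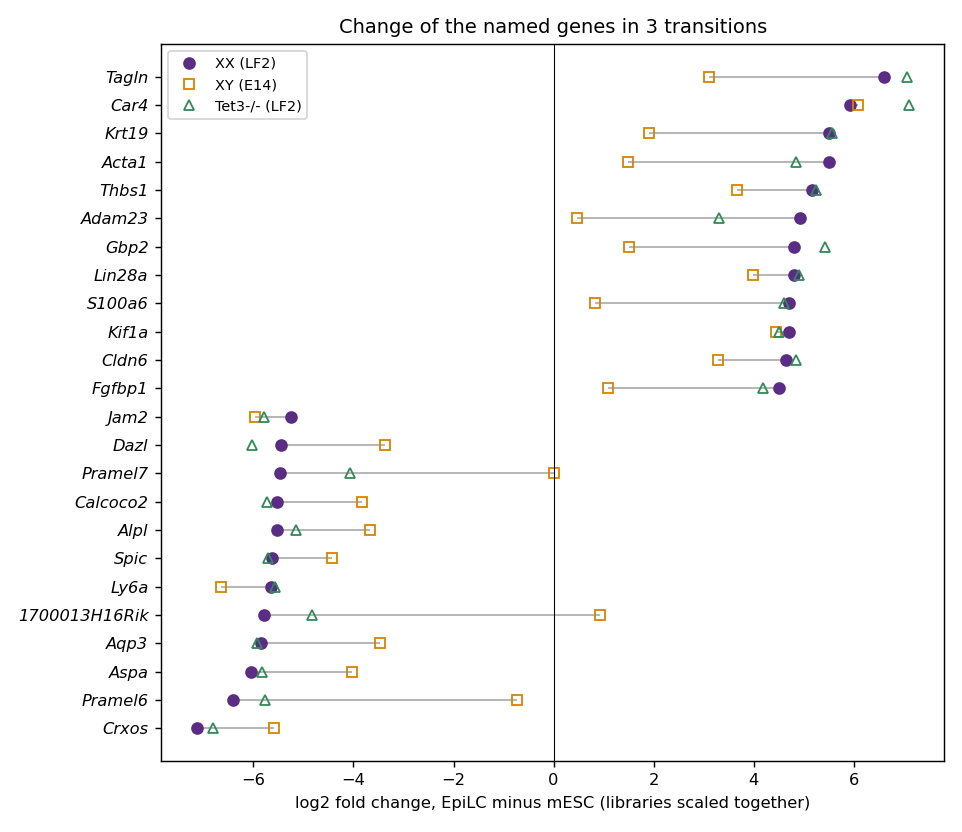
Log2 fold change (EpiLC minus mESC) of 24 named genes in the XX, XY and Tet3-/- transitions, all libraries scaled together, with 1 symbol per transition. The XX and Tet3-/- symbols lie close for most genes, while the XY symbols of S100a6, Pramel6 and Pramel7 lie within 1 of 0.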

How the data were processed

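The authors deposited 1 table of TPM per transcript for all 19 libraries. Per the labels' protocols, total RNA was depleted of ribosomal RNA and made into stranded libraries. The submitters' processing notes name FastQC 0.11.7, Trimmomatic 0.35, Salmon 1.1.0 and the build GRCm38; the annotation is not given in the sources used here. Of 140948 transcripts, 139357 matched GENCODE M21 with their version, 495 without it and 1096 not at all (0.0454% to 0.2149% of TPM in a library), and TPM was summed per gene. Every library summed to 1000000, so depth is unknown.

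Genes were kept that reached a TPM of 1 in 3 or more of the 6 XX libraries. TPM was divided by median-of-ratios factors over these libraries, and log2(scaled TPM + 1) was modelled in limma 3.58.1 (R 4.3.3) with a trended prior, adjusting p by Benjamini-Hochberg over 12531 genes. Differences between transitions came from 1 fit of 6 groups over 19 libraries, for the genes kept by the XX filter. The steps were tested on simulated data. Tables and plots used Python 3.11.15, pandas 2.3.3, NumPy 2.4.6 and matplotlib 3.10.9. Replicate numbers are shared between mESC and EpiLC in the labels, but same-numbered libraries did not deviate together (correlations of 0.051, -0.076 and 0.060), so numbers were not used as pairs.

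Genes named were the 12 highest and 12 lowest fold changes among called protein-coding genes with a mean of at least 5 scaled TPM in the higher group and no overlap, 5 and 5 long non-coding genes by the same conditions, the 6 largest rises and falls in level, and up to 3 called members per list and direction with a mean of at least 5. Other list members are named as background, mostly as pathway genes that were not called, and Xist, Tet3 and Rn7s1 as checks. Results for a few genes and for 1 list are not reported here. The members and the 43 lists and 39 families were chosen with earlier results of these data known, and a family is the set of annotated genes whose symbols share a stem.

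Promoter windows are RefSeq sequences. 13 motifs were searched on both strands in 7 lists, and the 4 shown were chosen after their counts were seen. The others were the E2F element GCGGGAA, the sterol regulatory element, the STAT element, the AP-1 element, the AP-2 element, the lysosomal E-box (which contains CACGTG), the cyclic AMP response element TGACGTCA, the grainyhead element AACCGGTT and the KLF element GGGTGTGG.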

Additional observations from a re-analysis of the deposited data

Results flagged for a closer look

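The change from XX mESC to XX EpiLC was set against the same change in XY cells and in Tet3-/- cells, and each difference was tested as a contrast of contrasts with limma over 19 libraries. Both use the same XX libraries, and sex and cell line cannot be told apart in the first. The difference from XY was called for 2863 genes and the difference from Tet3-/- for 108.

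Of the 24 genes with the largest changes in XX, 19 carry such a difference, where 22.8% of all tested genes differed from the XY transition and 0.862% from the Tet3-/- transition. These genes were chosen for their large changes in the XX libraries, so their number is a description. Among those that rose, the XX change exceeded the XY change on the log2 scale by 3.50 for Tagln, 3.61 for Krt19, 4.02 for Acta1, 1.50 for Thbs1, 4.46 for Adam23, 3.88 for S100a6, 3.30 for Gbp2 and 3.42 for Fgfbp1. Among those that fell, the XX minus XY difference was -1.54 for Crxos, -5.69 for Pramel6, -2.03 for Aspa, -2.38 for Aqp3, -6.71 for 1700013H16Rik, -1.21 for Spic, -1.70 for Calcoco2, -1.87 for Alpl and -5.48 for Pramel7, and it was 0.72 for Jam2, which fell less in XX. Against Tet3-/- the difference was -1.18 for Car4, which rose in both. The cause of these differences was not tested.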

How the results depend on the processing

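TPM gives no depth, so how far depth limits the calls is unknown, and 3 libraries per group limit the precision. On TPM as deposited the XX transition had 1423 genes called lower, and 65.1% of calls were higher in place of 50.5% (62.1% when rescaled over nuclear protein-coding genes). With a TPM of at least 5 required, 1783 genes were higher and 1730 lower (3513 in all), out of fewer genes tested. With a change of 1 log2 unit or more required as well, 1270 were higher and 1141 lower (2411 in all). Leaving out 1 library at a time gave 2293 to 4359 higher, 2122 to 4345 lower and 4415 to 8704 in all, the highest of each without XX mESC 2. The XX minus XY difference had 1623 calls on TPM as deposited and 2233 to 3758 with 1 library left out. The XX minus Tet3-/- difference had 28 calls on TPM as deposited, all higher in XX (63.0% with scaling), 47 in a fit of only the 4 groups compared, 66 with a pseudocount of 0.1, and 51 to 339 with 1 library left out. The cause of these shifts was not tested.

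With the replicate number as a block, which the libraries gave no sign of sharing (not every library correlated best with its own number), the XX transition had 5229 calls, the XX minus XY difference 2481 and the XX minus Tet3-/- difference 14. No named gene changed direction while called, in 7111 values under the alternatives, and 788 of those values were no longer called. The median of some lists changed sign, most often on TPM as deposited: heat shock chaperones (0.028), the citric acid cycle (0.0096), lysosomal genes (0.017), retroelement silencers (0.045), Zfp genes (0.041) and solute carriers (0.085).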

Other observations

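Transcript shares within genes were compared in XX cells as a description. Among 2789 protein-coding genes that had 10 TPM or more in each of the 6 libraries, 2 had a transcript whose share of the gene's TPM moved by at least 50 percentage points between the groups without overlap of the libraries.

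In Etv5, an Ets factor downstream of FGF, the transcript Etv5-203 (chromosome 16, 22381316 to 22436514, minus strand, GRCm38) held 68.7%, 72.9% and 65.6% of the gene's TPM in XX mESC 1 to 3 and from 0% to under 4% in XX EpiLC 1 to 3. The transcript Etv5-201 (22381309 to 22439719), which starts further upstream, held 30.9% of the gene's TPM in mESC and 97.4% in EpiLC. In level, Etv5-203 went from 30.6 ± 1.62 to 0.271 ± 0.363 scaled TPM (SD, n = 3), while Etv5-201 had 13.8 ± 2.70 in mESC and 17.3 ± 0.248 in EpiLC. The fall of Etv5 as a gene thus lay in the shorter transcript.

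In Vmp1, a gene of autophagosome formation, the processed transcript Vmp1-206 (chromosome 11, 86585020 to 86586994, minus strand) was listed at 0 in XX mESC 1 to 3 and held 50.6%, 51.3% and 52.7% of the gene's TPM in XX EpiLC 1 to 3, at 11.9, 12.3 and 12.1 scaled TPM. It ends 861 bases upstream of Mir21a (86584067 to 86584158, minus strand), a microRNA gene. Estimates for single transcripts share reads between overlapping isoforms and are less certain than gene sums.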
